A study of Mus musculus with 4 samples.

Results

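The 10 genes described here encode enzymes of glycolysis: Gpi1, Tpi1, Gapdh, Pgk1, Pgam1, the enolases Eno1, Eno2 and Eno3, and the pyruvate kinases Pkm and Pklr. They were chosen by gene symbol, and each symbol matched 1 of the 54838 genes listed for every library. Gpi1 acts on hexose phosphate, upstream of the triose steps, while the other 9 cover the stretch from triose phosphate to pyruvate. RNA was sequenced from Hepa1-6, a mouse hepatocellular carcinoma cell line, in 2 groups of 2 libraries. The NC group is wild type for Acvr2a, which encodes a type II activin receptor, and the KO group carries an Acvr2a knockout. The series calls the KO cells subclones. Whether KO 1 and KO 2 came from separate subclones, and whether the libraries of a group came from separate cultures, is not given in the sources used here, so the p-values below measure only the spread between these 4 libraries. Lactate output and high glycolysis are named in the title of the series.

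Glycolysis splits glucose into a pair of triose phosphates and oxidises them to pyruvate, and the lower stretch returns ATP at the Pgk1 and pyruvate kinase steps and reduces NAD+ at the Gapdh step. Several of these enzymes have tissue-specific paralogs. Eno1 is the widely expressed enolase, Eno2 the neuronal and Eno3 the muscle enolase. Pklr encodes the liver and red-cell pyruvate kinase, and Pkm the form of muscle and of proliferating and tumour cells. Many genes of the pathway are known targets of the hypoxia-inducible factors, and Pklr of the glucose-responsive factor ChREBP, which Mlxipl encodes.

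Library totals lay between 11597945 and 13910593 expected counts, and 12510 genes passed the filter on low counts. All 10 enzyme genes were among them. Of 10 hepatocyte markers, Alb, Trf, Afp and Hnf4a were well read in every library (the lowest count was 1433, for Hnf4a in KO 2). Apob had 1007 to 1225 counts, Apoa1 17 to 39, Apoa2 15 to 19, Serpina1a at most 4.52 and Ttr at most 1. Of the 8 tested, 2 were higher in KO, 3 lower and 3 did not pass (edgeR adjusted p under 0.05). Alb (log2 fold change 0.41) and Trf (0.54) rose, while Afp (-1.21), Hnf4a (-0.995) and Fgb (-0.75) fell. Of markers of other cell types, 8 leukocyte genes summed to 24.98 and 28.96 TPM in NC and 57.5 and 69.2 TPM in KO, with Cd3e at 0 and Ptprc at 2 counts or fewer. Nearly all of that sum was Cd68 (24.04 and 27.7 TPM in NC, 55.5 and 67.6 TPM in KO), which was higher in KO (log2 fold change 1.203, edgeR adjusted p = 1.34e-08). The 8 fibroblast genes summed to 1034 and 1097 TPM in NC and 1236 and 1240 TPM in KO, with Col3a1, Lum and Thy1 at 0. Of these, Dcn alone had 1032 and 1094 TPM in NC and 1228 and 1234 TPM in KO (log2 fold change 0.16, edgeR adjusted p = 0.193). Col1a1 (at most 6 counts in an NC library, 38 or more in a KO library, log2 fold change 2.73, edgeR adjusted p = 3.05e-05) and Pdgfra (log2 fold change 0.97, edgeR adjusted p = 5.42e-06) were higher in KO. The 7 endothelial genes summed to 1.15 TPM or less, and the part of these genes in the results below was not tested. Acvr2a itself was counted 81.0, 108.4, 74.7 and 97.4 times in NC 1, NC 2, KO 1 and KO 2, with a log2 fold change of -0.21 (SE 0.20, edgeR quasi-likelihood, adjusted p = 0.433). The count covers the whole gene and the labels do not say which part was edited, so it does not check the labels.

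Gapdh dominated the group. In TPM, a level scaled by transcript length that allows genes to be compared, it stood at 20520 and 19969 in NC and at 26246 and 33621 in KO, the rank of 4 among all listed genes by mean TPM. It made up between 78.2% and 83.5% of the TPM of the 10 genes together. Without Gapdh the other 9 summed to 5306 and 5559 TPM in NC and to 7032 and 6620 TPM in KO. Among expected counts, the 10 genes took 2.07% of both NC libraries, 2.63% of KO 1 and 2.81% of KO 2. In a bulk library, more RNA per cell and more cells of one kind cannot be told apart.

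In NC the order by mean TPM after Gapdh was Eno1 (1524), Pkm (928), Tpi1 (861), Pgk1 (746), Pgam1 (693), Gpi1 (611), Eno3 (47.1), Pklr (14.4) and Eno2 (7.90). The libraries of Pgk1 and Pgam1 overlapped there, and no other neighbours in that order did. In KO the order was Eno1 (1600), Pgk1 (1314), Pkm (1183), Tpi1 (1007), Gpi1 (840), Pgam1 (778), Eno3 (70.1), Eno2 (16.6) and Pklr (16.1). There Pgk1 overlapped with Pkm, and Eno2 with Pklr. The lowest value among the 7 abundant enzymes was 606.1 TPM (Gpi1 in NC 1) and the highest among the 3 minor paralogs 73.6 TPM (Eno3 in KO 1).

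**Figure D1:**
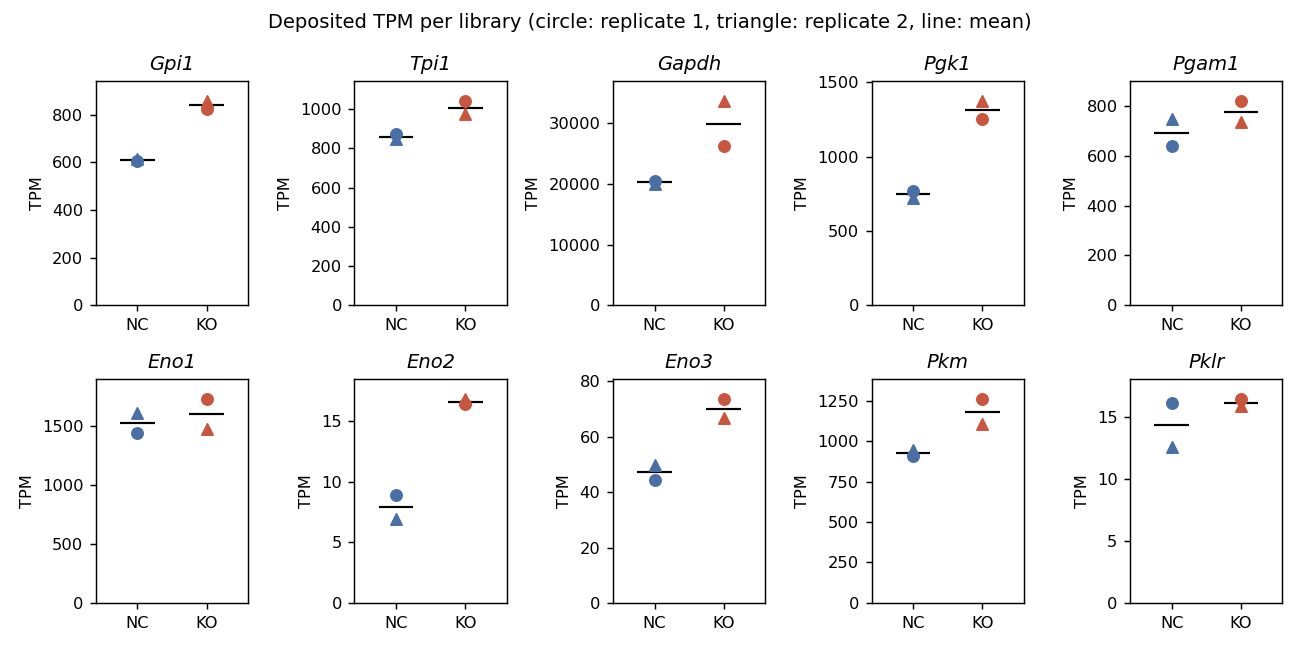
Deposited TPM (vertical axes, linear from 0, a separate scale for each gene) of the 10 enzyme genes in the NC and KO libraries, with circles for replicate 1, triangles for replicate 2 and lines for group means. Both KO points lie above both NC points for Gpi1, Tpi1, Gapdh, Pgk1, Eno2, Eno3 and Pkm, and the groups overlap for Pgam1, Eno1 and Pklr.

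Upstream sequence is shown for the genes with the largest changes, Eno2 and Pgk1, and for Pgam1, which did not pass the test. The stretches are the 250 bases before the RefSeq start site on GRCm38.p6, 5′ to 3′ on the gene's own strand. Capitals mark ACGTG and GCGTG, the core letters of the hypoxia response element, searched on both strands. They are chrX:106186850-106187099 (plus strand) for Pgk1, chr6:124769674-124769923 (minus strand) for Eno2 and chr19:41911621-41911870 (plus strand) for Pgam1.
Pgk1: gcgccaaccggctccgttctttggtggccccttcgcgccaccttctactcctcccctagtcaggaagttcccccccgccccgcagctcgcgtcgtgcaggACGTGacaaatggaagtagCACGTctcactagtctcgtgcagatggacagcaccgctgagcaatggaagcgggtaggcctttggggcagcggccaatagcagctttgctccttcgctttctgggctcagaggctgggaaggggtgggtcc
Eno2: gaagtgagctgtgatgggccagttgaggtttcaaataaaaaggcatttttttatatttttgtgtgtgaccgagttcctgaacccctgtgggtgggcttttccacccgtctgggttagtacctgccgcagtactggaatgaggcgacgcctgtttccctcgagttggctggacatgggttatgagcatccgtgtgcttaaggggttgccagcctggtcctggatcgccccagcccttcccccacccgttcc
Pgam1: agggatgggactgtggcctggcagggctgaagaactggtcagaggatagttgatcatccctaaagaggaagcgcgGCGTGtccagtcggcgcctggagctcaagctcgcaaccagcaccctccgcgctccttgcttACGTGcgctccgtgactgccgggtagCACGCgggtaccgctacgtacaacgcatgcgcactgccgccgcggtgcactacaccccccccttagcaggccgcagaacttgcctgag

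The Pgk1 stretch held 2 ACGTG matches, 150 and 131 bases before the start and on opposite strands. The Eno2 stretch held 0 matches of either core. In Pgam1 there were 3, 1 ACGTG and 2 GCGTG, the most in any window of the 10 genes. RefSeq gave 14 such windows for the 10 genes, of which 8 held ACGTG or GCGTG, against 38.6% of all 32851 windows of that length. Windows of the same gene can overlap, so the 8 are not all separate sites. The Eno1 windows starting at 150236947 and 150236974 on chromosome 4 held the same GCGTG matches. Both Pklr windows and those of Gpi1 and Tpi1 had 0. No window of the 10 genes held the E-box letters CACGTG, which contain ACGTG and which 6.02% of all windows held. The search took exact letters only, so E-boxes with other letters were not counted, for Pklr or any other gene. These matches describe letters only, and binding was not measured.

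Compared between the groups, 6 of the 10 genes were higher in KO (edgeR quasi-likelihood, adjusted p under 0.05), 0 were lower and 4 did not pass. Over all 12510 genes tested, 37.9% passed by the same rule, 19.7% higher and 18.2% lower. The median log2 fold change of the 10 was 0.35, and it was -0.0037 over all genes. Both KO libraries lay above both NC libraries in CPM, counts scaled to one library size with TMM factors, for 7 of the 10, against 34.8% of the genes tested, and below both for 0, against 34.7%. The 6 were Gpi1, Gapdh, Pgk1, Eno2, Eno3 and Pkm. In limma fits on the deposited TPM the count was 4 or 5 with a filter on low TPM and 0 without one, where 5 of the 10 had an unadjusted p under 0.05. Over all genes, the filtered fits called 14.8% and 14.4%. The unfiltered fit called 0 of 20640, of which 4506 had an unadjusted p under 0.05. As the genes were chosen with results on these libraries known, the shares describe them and are not a test of the list.

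**Figure D2:**
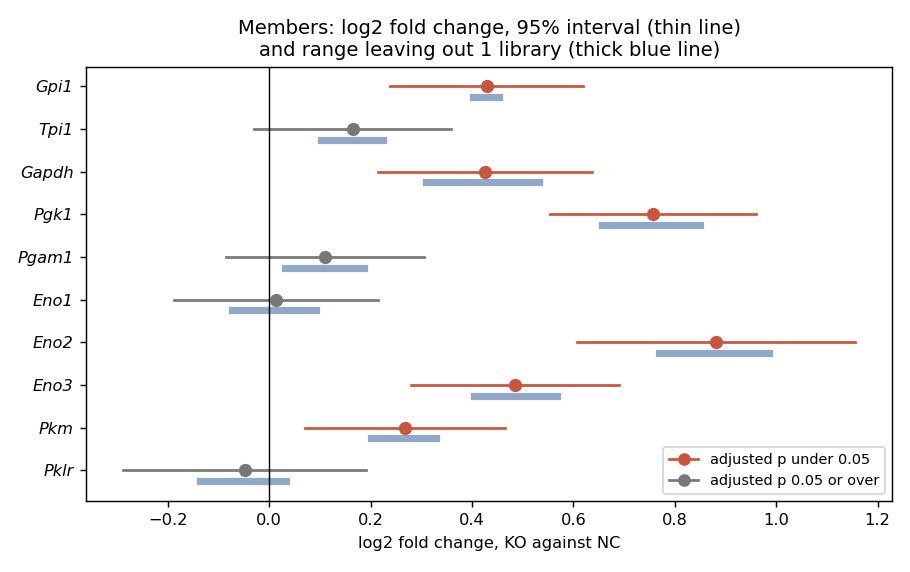
Log2 fold change between KO and NC (horizontal axis) of each enzyme gene from edgeR's quasi-likelihood fit, as points with thin lines for the 95% interval, and thick blue lines for the range of the value when 1 library is left out. Pgk1 and Eno2 lie farthest to the right, and the intervals of Tpi1, Pgam1, Eno1 and Pklr cross 0.

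Gpi1 (ENSMUSG00000036427.5, chromosome 7, 34201330 to 34230336) interconverts glucose 6-phosphate and fructose 6-phosphate. It read 838.4 and 845.6 CPM in NC and 1114 and 1154 CPM in KO. The replicates of each group lay close together and the groups were well apart. The log2 fold change was 0.43 (SE 0.09, edgeR adjusted p = 0.000622), a 1.35-fold rise. Its exons overlap the lincRNA Gm26762 on the opposite strand, and whether reads were counted by strand is not given in the sources used here.

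Tpi1 (ENSMUSG00000023456.15, chromosome 6, 124810586 to 124814296) interconverts the triose phosphates. It was at 1120 and 1023 CPM in NC and 1217 and 1186 CPM in KO. Although both KO libraries were the higher ones, the difference of 0.16 on the log2 scale (SE 0.09, 95% interval -0.029 to 0.36, edgeR adjusted p = 0.175) was within the spread that the fit allows. The exons overlap Spsb2 on the opposite strand.

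Gapdh (ENSMUSG00000057666.18, chromosome 6, 125161715 to 125166467) oxidises glyceraldehyde 3-phosphate and is widely used as a reference transcript. It was at 12737 and 12381 CPM in NC and at 15574 and 18155 CPM in KO. The KO libraries differed from each other by 1.17-fold, KO 2 being the higher, and both exceeded NC. Gapdh rose by 0.43 on the log2 scale (SE 0.10, edgeR adjusted p = 0.00186), or 1.34-fold. The value fell to 0.31 with KO 2 left out and came to 0.53 with KO 1 left out. In the limma fit on log2(TPM + 1) with a filter the adjusted p was 0.0519. Set against Gapdh in the same library, the log2 count ratio of Pgk1 was -3.48 and -3.60 for the NC libraries and -3.19 and -3.22 for the KO libraries. For Eno1 it was -2.40 and -2.28 (NC) and -2.56 and -2.95 (KO). Relative to Gapdh, then, Pgk1 was higher and Eno1 lower in both KO libraries.

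The deposited TPM of Gapdh widened the gap between the KO libraries to 1.28-fold. TPM is divided by the deposited effective length, which is weighted over the transcripts the program assigned and shorter than the full length, and for Gapdh it was 686.7 bases in KO 1 and 599.2 in KO 2, against 660.4 and 692.0 in NC. Of the other enzymes, Eno2 had an effective length of 2283 bases in NC 2 against 1979 in NC 1, and Pklr had 2658 in NC 2 against 1978 in NC 1. The full length deposited for Pklr in NC 2, 2902 bases, equals that of the single transcript Pklr-202. In these cases TPM and CPM therefore disagree on which replicate is higher or by how much. Pklr was at 30.0 CPM in both NC libraries, yet its TPM in NC 2 was 0.782 times that in NC 1. The effective lengths of Pgk1, Pgam1 and Eno1 stayed between 1576 and 1586, between 1586 and 1593, and between 1771 and 1777 bases.

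**Figure D3:**
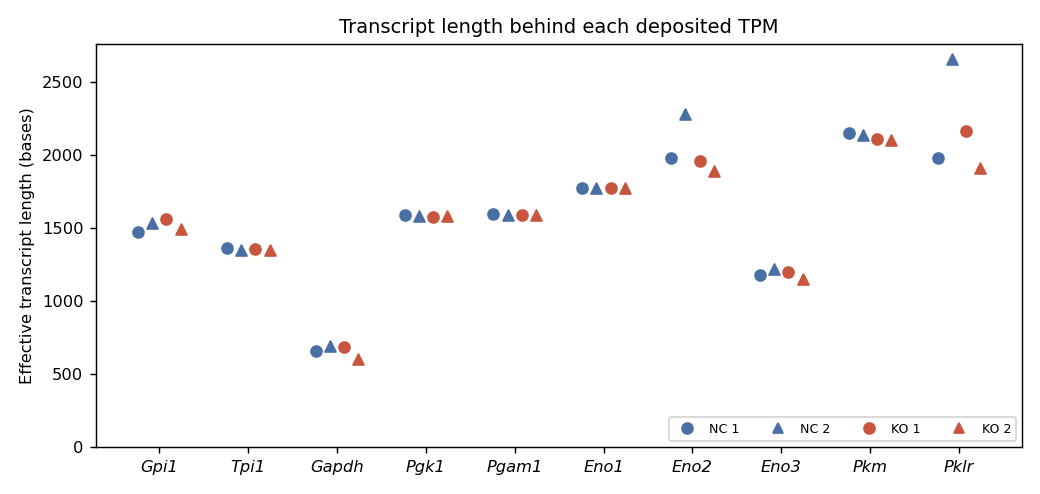
Effective transcript length in bases by which the deposited TPM was divided, weighted by the program's transcript estimates (vertical axis from 0), for each enzyme gene and library, with circles for replicate 1 and triangles for replicate 2. The 4 points nearly coincide for Tpi1, Pgk1, Pgam1 and Eno1 at this scale and spread most for Pklr, where NC 2 is at 2658.

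Pgk1 (ENSMUSG00000062070.12, chromosome X, 106187100 to 106203699) makes the first ATP of the lower stretch. Levels of 1145 and 1024 CPM in NC compared with 1711 and 1954 CPM in KO, with no overlap. The log2 fold change was 0.76 (SE 0.10, 95% interval 0.55 to 0.96, edgeR adjusted p = 1.26e-06), a 1.69-fold rise and the largest among the 7 abundant enzymes. Similar genes were sought among 5461 candidates whose mean log2 CPM was 5 or more, with predicted genes (Gm and Rik names) left out. The 5 whose centred log2 CPM over the 4 libraries lay closest to that of Pgk1 were mt-Rnr2, Ogt, Taf1d, Tmem71 and Plk2. Their Euclidean distances ran from 0.0332 to 0.101, and Ogt, for instance, went from 126.6 and 114.7 CPM in NC to 188.8 and 224.5 CPM in KO. As the 4 libraries fall in 2 groups, closeness to Pgk1 by this measure largely reflects a group difference of this size. The order of the replicates counts as well. In all 5 genes, as in Pgk1, NC 1 was above NC 2 and KO 2 above KO 1.

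Pgam1 (ENSMUSG00000011752.6, chromosome 19, 41911923 to 41918660 in the annotation, which holds another version of this entry) moves the phosphate of 3-phosphoglycerate. Its libraries were at 957.2 and 1062 CPM in NC and 1122 and 1056 CPM in KO, so that KO 2 fell just under NC 2. The log2 fold change was 0.11 (SE 0.10, 95% interval -0.086 to 0.31, edgeR adjusted p = 0.387). The log2 ratio of Pgam1 to Pgk1 CPM was -0.26 and 0.052 in NC and -0.61 and -0.89 in KO, lower in both KO libraries by 0.64 on average. An exact two-sided permutation test gave p = 0.333, the smallest that 2 libraries against 2 allow, here and for the other 8 ratios of neighbouring steps or paralogs that were compared (p = 0.333 after Benjamini-Hochberg adjustment over the 9).

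Enolases form phosphoenolpyruvate. Eno1 (ENSMUSG00000063524.13, chromosome 4, 150236721 to 150248879), the most abundant of the 3, was at 2405 and 2552 CPM in NC and 2646 and 2357 CPM in KO. The KO libraries lay on either side of both NC libraries. Its log2 fold change came to 0.013 (SE 0.10, 95% interval -0.19 to 0.21, edgeR adjusted p = 0.933). Its sign is not fixed, since it was -0.073 without KO 1, -0.036 without NC 1, -0.046 with the trend on gene length removed and -0.00064 without the filter on low counts.

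Eno2 (ENSMUSG00000004267.16, chromosome 6, 124760053 to 124769673) was counted 188, 196, 365 and 387 times in NC 1, NC 2, KO 1 and KO 2. These are 16.5 and 14.2 CPM in NC and 27.7 and 28.7 CPM in KO. The groups were far apart relative to their replicates, and the change of 0.88 on the log2 scale (SE 0.13, 95% interval 0.61 to 1.16, edgeR adjusted p = 9.21e-06) was the largest of the 10 genes. The neuronal markers Tubb3, Rbfox3, Snap25, Syt1, Map2, Nefl, Nefm and Stmn2 summed to 0.23 and 0.050 TPM in NC and 0.26 and 0.020 TPM in KO. Snap25, Nefl, Nefm and Stmn2 had 0 counts in all 4 libraries.

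Eno3 (ENSMUSG00000060600.15, chromosome 11, 70657202 to 70662513) had 558, 757, 1005 and 933 counts, in the same order of libraries. In CPM this was 49.1 and 54.7 in NC and 76.3 and 69.1 in KO, again without overlap. It rose by 0.48 on the log2 scale (SE 0.10, edgeR adjusted p = 0.000387), or 1.40-fold. The muscle markers Ckm, Myh4, Myh7, Acta1, Tnnt3, Tnnc2, Myod1 and Des summed to 2.83 and 4.33 TPM in NC and 6.57 and 5.79 TPM in KO. Ckm had 2 or 3 counts per library and Myod1 had 0. Of the 2 tested markers, Des was higher (43 and 55 counts in NC, 126 in each KO library, log2 fold change 1.28, edgeR adjusted p = 2.76e-05). The part of Des or of other muscle genes in the Eno3 result was not tested.

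The share of Eno1 among the enolases was smaller in both KO libraries. Of the summed TPM of the 3 enolases, Eno2 made up 0.595% and 0.416% in NC and 0.902% and 1.08% in KO, a difference of group means of 0.484 percentage points. For Eno3 they were 2.97% and 2.997% (NC) and 4.05% and 4.28% (KO). Eno1 went from 96.4% and 96.6% to 95.05% and 94.6%. No group overlapped with the other in any of the 3 shares, and the exact permutation p was 0.333 for each, the smallest possible. Eno1 therefore still supplied at least 94.6% of the TPM of these 3 genes in every library. Eno1b, a close copy of Eno1 at 7.72 to 15.0 TPM, was not in that sum.

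**Figure D4:**
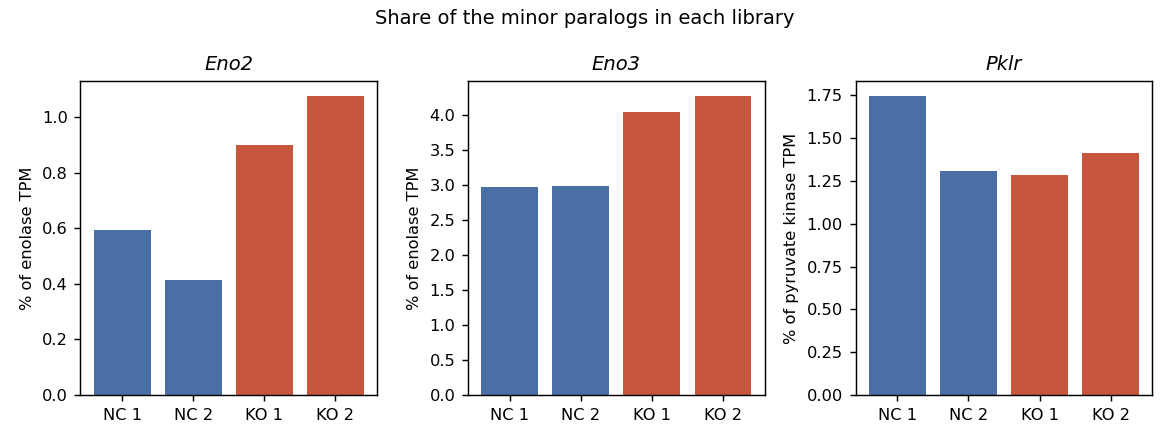
Share of Eno2 and Eno3 in the summed TPM of Eno1, Eno2 and Eno3, and of Pklr in the summed TPM of Pkm and Pklr (vertical axes in percent from 0), with 1 bar per library. Both KO bars exceed both NC bars for Eno2 and Eno3, whereas for Pklr the KO bars at 1.29% and 1.41% lie around the NC 2 bar at 1.31%.

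Pkm (ENSMUSG00000032294.17, chromosome 9, 59656368 to 59679375) catalyses the last step, from phosphoenolpyruvate to pyruvate. It read 1835 and 1815 CPM in NC and 2296 and 2097 CPM in KO, with both KO libraries above NC. The log2 fold change was 0.27 (SE 0.10, 95% interval 0.071 to 0.46, edgeR adjusted p = 0.0290), or 1.204-fold. Pkm passed in 9 of 16 alternatives, the fewest of the 6 called genes. It did not pass without NC 1 (0.27, adjusted p = 0.0923), without NC 2 (0.26, adjusted p = 0.101) or without KO 1 (0.20, adjusted p = 0.133), nor in the TPM fits or with the length trend removed (0.19, adjusted p = 0.0921). Over the 16 alternatives its adjusted p ran from 0.00578 to 0.192. The gene total does not separate the M1 and M2 splice forms, and its exons overlap the entry Gm49759 on the same strand.

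Pklr (ENSMUSG00000041237.12, chromosome 3, 89136142 to 89146784) was counted 340.6, 415.5, 404.5 and 368.9 times in NC 1, NC 2, KO 1 and KO 2. The levels of 30.0 and 30.0 CPM in NC lay between those of KO 1 and KO 2, 30.7 and 27.3 CPM. Its log2 fold change came to -0.049 (SE 0.12, 95% interval -0.29 to 0.19, edgeR adjusted p = 0.779), and its sign turned in the TPM fits (0.17 to 0.18) and without KO 2 (0.032). Its exons overlap Hcn3 on the opposite strand. Erythroid markers, checked because red cells use this gene, summed to 57.9 and 66.2 TPM in NC and 62.8 and 52.9 TPM in KO. Of these, Hba-a1 had 203.7 to 265.9 counts per library, while Hbb-bt, Alas2 and Slc4a1 had 0. Epor, the erythropoietin receptor, was higher in KO (at most 23 counts in an NC library, at least 43 in a KO library, log2 fold change 1.27, edgeR adjusted p = 0.00351). Klf1 had at most 2 counts in an NC library and 4 or 8 in the KO libraries. The part of these genes in the Pklr values was not tested.

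By TPM, Pklr made up 1.75% and 1.31% of the 2 pyruvate kinases in NC and 1.29% and 1.41% in KO. These overlap, and the difference of -0.18 percentage points had an exact permutation p of 0.667. Taken from expected counts, without the transcript lengths described above, they came to 1.61% and 1.63% (NC) and 1.32% and 1.29% (KO). On that scale the groups did not overlap, with a difference of -0.31 percentage points and an exact p of 0.333. Pkm was the main form on either scale, at 98.25% to 98.7% by TPM.

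Gene entries of similar sequence can exchange reads with these enzymes. A search of annotated transcripts at 90% identity or more, over at least 50% of the matching transcript, found 192 other entries for Gapdh, of which 71 had counts. For Eno1 there were 8, for Pkm 8, for Pgk1 4, for Pgam1 3, for Tpi1 2, for Gpi1 1, and for Eno2, Eno3 and Pklr 0. Among the Gapdh entries Gm7336, a processed pseudogene, held the most counts, 1348 and 1672 in NC and 2151 and 2097 in KO. Not every entry is a copy of the enzyme. Peli2, a separate protein-coding gene matched over at most 67.5% of a transcript, was included with its whole count (88 to 140). Such entries made up 1.17% to 1.42% of the joint Gapdh counts and 1.82% to 2.20% of those of Pgk1, and at most 1.12% for each of the others. With them added to their enzyme, the same number of genes passed, 6.

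The rest of the pathway was set beside these enzymes with lists written out with earlier results on these libraries known. For glucose uptake to aldolase, 10 of the 13 genes reported were tested and 9 of them rose, with a median log2 fold change of 0.46 over the 10. Over all genes tested 19.7% rose. The count was 5 in both filtered TPM fits and 0 in the unfiltered one. Over all genes, 14.8% and 14.4% passed in the filtered fits in either direction, and 0 of 20640 in the unfiltered one. The count for this list was also lower without NC 1 or without KO 1, as was the share of all genes that passed. Aldoc, an aldolase of brain, rose by 1.49 (SE 0.11, edgeR adjusted p = 7.08e-11), from 285 and 304 counts in NC to 803 and 959 in KO. Pfkp, a phosphofructokinase, rose by 1.08 (SE 0.10, edgeR adjusted p = 3.06e-09). Slc2a3, a glucose transporter, rose by 0.90 (SE 0.10, edgeR adjusted p = 1.38e-07). Pyruvate's reduction to lactate is the next step, and Ldha was at 0.050 (SE 0.10, edgeR adjusted p = 0.729), or -0.055 without KO 1.

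Of 8 other isoenzymes of the same and the next step, 5 were nearly silent: Gapdhs, Pgk2, Pgam2, Eno4 and Ldhb had between 0 and 3 counts in each library. Ldha read 1547 TPM in both NC libraries and 1830 and 1571 TPM in KO, and Eno1b 7.72 to 15.0 TPM over the 4 libraries. Bpgm, which makes 2,3-bisphosphoglycerate, and Eno1b, a close copy of Eno1, had log2 fold changes of 0.31 (SE 0.13, edgeR adjusted p = 0.0608) and 0.39 (SE 0.17, edgeR adjusted p = 0.0611), both named after their values were seen. Of the 3 genes of that list that were tested, 0 passed, against 37.9% of all genes tested. Before adjustment Bpgm and Eno1b were under 0.05. Without NC 2 both passed (edgeR adjusted p = 0.025 and 0.0084), and without KO 2 Eno1b did (edgeR adjusted p = 0.0046).

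Of 8 genes of side branches linked to the same intermediates, all tested, 4 fell and 1 rose, with a median log2 fold change of -0.40. Over all genes tested 18.2% fell and 19.7% rose. Shmt2 (-0.76, SE 0.10), Phgdh (-0.67, SE 0.10) and Psat1 (-0.55, SE 0.09) fell, with edgeR adjusted p of 6.43e-07, 9.75e-06 and 2.69e-05. Phgdh takes 3-phosphoglycerate, the product of Pgk1, into serine synthesis, Psat1 follows it and Shmt2 uses serine. The other gene that fell was Gpd1l (-0.33), and the one that rose was Tkfc (0.41), a kinase of dihydroxyacetone, both named after their values were seen. Without KO 2 neither passed (edgeR adjusted p = 0.070 and 0.12), leaving 3 of the 8 called. Gpd1l also missed the threshold without NC 1 (edgeR adjusted p = 0.066) and Tkfc without NC 2 (edgeR adjusted p = 0.17).

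Regulators gave no common direction. Among 5 splicing factors of Pkm, Srsf3 (0.40, SE 0.10, edgeR adjusted p = 0.00146) and Hnrnpa1 (0.24, SE 0.09, edgeR adjusted p = 0.0411) rose. Ptbp1 (-0.29, SE 0.09, edgeR adjusted p = 0.0167) and, named after its value was seen, Rbm4 (-0.46, SE 0.19, edgeR adjusted p = 0.0485) fell. Over all genes tested 19.7% rose and 18.2% fell. Hnrnpa1 passed in none of the 4 fits that left out 1 library (edgeR adjusted p = 0.069 to 0.25), Ptbp1 missed without NC 1 (0.075), and Rbm4 missed without NC 2 (0.47) and without KO 2 (0.27), so that 2 of the 5 were called without NC 1, NC 2 or KO 2. The Srsf3 value was 1.01 on the log2(TPM + 1) scale. Of the 10 transcription factors of glycolytic genes reported, 1 rose and 3 fell, a share called near the 37.9% of all genes tested. Mlxipl rose from 65 and 71 counts in NC to 372 and 419 in KO (log2 fold change 2.45, SE 0.16, edgeR adjusted p = 3.005e-12). Hnf4a (-0.995, SE 0.09) and Usf2 (-0.74, SE 0.09) fell, as did Mlx (-0.34), named after its value was seen. Mlx missed the threshold without NC 2 (edgeR adjusted p = 0.058) and without KO 2 (edgeR adjusted p = 0.13). Hif1a, also named after its value was seen, was at -0.11 (SE 0.09, edgeR adjusted p = 0.381), and passed at -0.27 (edgeR adjusted p = 0.016) with the length trend removed.

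**Figure D5:**
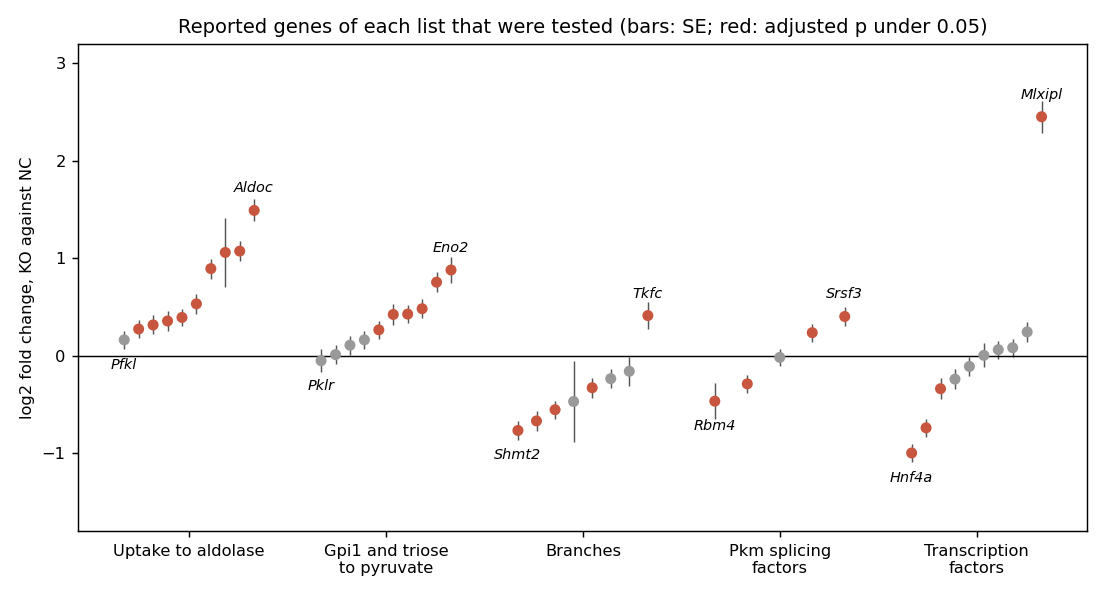
Log2 fold change between KO and NC (vertical axis) of the tested genes reported from 5 lists, ordered by value within each, with SE bars and red points for an adjusted p under 0.05. In the first 2 lists most of the points shown lie above 0, while the branch list lies mostly below 0 and Mlxipl stands highest at 2.45.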

How the data were processed

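Each deposited file holds 1 library with 1 row per gene. The authors' expected counts are estimated, non-normalised counts per gene, in the column layout of RSEM per the file headers; STAR, RSEM, DESeq2, FastQC and GRCm38 (mm10) are named in the submitters' processing notes, without versions or roles. TPM and FPKM are the authors' deposited length-scaled values, and the deposited length and effective length columns are transcript lengths weighted by estimated abundance; TPM was divided by the effective length. Expected counts were rounded and filtered with filterByExpr, leaving 12510 genes. KO was compared with NC by edgeR 4.0.16 (R 4.3.3; TMM, quasi-likelihood, group as the only term), with Benjamini-Hochberg adjustment over all genes tested and a threshold of 0.05; prior degrees of freedom were 25.8. SEs come from the fitted weights and moderated quasi-dispersion. The fit was tested on simulated data with the same spread for every gene. That test does not show how the fit behaves where spread differs between genes. Paralog shares used TPM and exact two-sided permutation tests. Coordinates and overlaps are from GENCODE M21 (GRCm38), matched by gene ID for 54723 of 54838 genes; copies were found with blastn 2.17.0 among its transcripts, and promoter windows are RefSeq's (GRCm38.p6). Alternatives used DESeq2 1.42.0 and limma 3.58.1. Intervals cover counting error and the spread shared between these libraries, and PCR copies were not separated.

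The named genes are the 10 enzymes, Acvr2a, Ldha, the 3 reported genes of each list with the lowest p past 0.05, and the 5 genes nearest to Pgk1. Other context genes were named after their values were seen, and marker genes from the lists of cell type markers. The genes and lists were chosen with earlier results of these data known. Some genes of the pathway and marker lists are not reported here, whatever their values, and the list counts leave them out.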

Additional observations from a re-analysis of the deposited data

How the results depend on the processing

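Of 160 values of single enzymes under 16 alternatives, 139 kept their direction and side of the threshold, 13 no longer passed and 8 changed sign. All 20 values under the 2 other scalings were among the 139. The sign changes concern Eno1 (-0.00064 without a filter on low counts, -0.036 without NC 1, -0.073 without KO 1, -0.046 with the length trend removed, and -0.073 to 0.092 over the fits without 1 library) and Pklr (0.17 with log2(TPM + 1), with or without a filter, 0.18 with log2(TPM + 0.1), 0.032 without KO 2, and -0.14 to 0.032 over the fits without 1 library), neither of which passed in any fit. The number of enzymes past 0.05 was 6, between 5 and 6 when 1 library was left out, and 0 with limma on log2(TPM + 1) without a filter (5 with an unadjusted p under 0.05); the cause was not tested. The replicate numbers are not stated to pair the libraries. The correlation of same-numbered deviations was -0.012 over the genes tested, which cannot exclude pairing, as counting noise also pulls it towards 0. The fit with the replicate block called 6 enzymes and 5006 genes. Over all genes 4741 passed (51.9% higher), against 2843 with DESeq2, 1739 and 1698 with filtered TPM (67.2% and 67.3% higher) and 0 with unfiltered TPM (4506 unadjusted); with the length trend removed it was 5139, 37.6% higher. Leaving out 1 library gave an Eno2 share difference of 0.394 to 0.574 percentage points and a Pklr share difference of -0.40 to 0.039, reversed to 0.039 without NC 1. For the context genes named, the same alternatives were run after the data were seen: of 334 values 274 kept direction and side, 48 no longer passed, 8 newly passed and 4 changed sign (Ldha at -0.055 without KO 1, in a range of -0.055 to 0.15 over the fits without 1 library; Hif1a at 0.026 with log2(TPM + 1), filtered or not, and 0.027 with log2(TPM + 0.1)). With 2 libraries a group, enzymes such as Tpi1 with an interval of -0.029 to 0.36 cannot be called changed or unchanged.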
